A study of Mus musculus with 3 samples.

Results

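The genes described here code for the NELL ligands, the Slit ligands, and the Robo and Ros1 receptors: Nell1 and Nell2, Slit1, Slit2 and Slit3, Robo1, Robo2, Robo3 and Robo4, and Ros1. They were taken by name, 10 of the 51826 rows of the expression table, and every one of the 10 names stood on a single row. NELL2 is a secreted glycoprotein with a thrombospondin-like module, von Willebrand factor C domains and EGF-like repeats, best known from neurons, where it steers axons. Robo proteins are membrane receptors that recruit actin regulators through their cytoplasmic tails, and the Slits are the large secreted ligands that classically bind them and repel growing axons. NELL2 is known to bind Robo2 and Robo3, and in the male reproductive tract it acts through Ros1, a receptor tyrosine kinase of epididymal epithelium. Its paralog NELL1 is known for promoting bone formation.

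The cells were ST2, a mouse line of bone marrow stromal cells that can form osteoblasts or adipocytes. They were transfected in 3 ways. The control received empty vector with control siRNA, the NELL2 overexpression cells received a NELL2 expression construct with control siRNA, and the Fn1 knockdown cells received empty vector with siRNA against Fn1, the gene for fibronectin. All of them carried both a plasmid and a siRNA at 30 nM, delivered with a lipid transfection reagent, and no group held unmanipulated cells. As a model each group was a transient transfection of 1 cell line, and the study describes its NELL2 construct as a Myc-tagged plasmid. Each of the 3 groups was a single library, so every difference reported is a difference between libraries with no replicate check, and no p-value was computed. In bulk RNA, fewer cells that use a gene and less RNA of it in each cell cannot be told apart.

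Levels are FPKM, the fragments of a gene scaled to the length of its transcript and to the total of mapped fragments, so that they can be set side by side between genes. From the worth of 1 fragment at the low end of the table the depth was estimated at 23000000, 23700000 and 24200000 fragments for control, NELL2 overexpression and Fn1 knockdown. The 7 stromal markers, such as Col1a1, were all at 1 FPKM or more in each library, and their summed level was 2692, 2901 and 2496 FPKM in that order. Markers of other cell types were far lower. The 5 neuronal markers summed to 6.70, 6.59 and 12.0 FPKM, nearly all of it Tubb3, and the defining Rbfox3 was listed at 0. Of the 4 endothelial markers, 1 reached 1 FPKM, and the list summed to 1.75, 1.78 and 1.97 FPKM. The 4 macrophage markers summed to 5.61, 5.79 and 2.94 FPKM, the osteoblast markers (4 genes) to 4.31, 4.16 and 4.07 FPKM, the adipocyte markers (3 genes) to 1.81, 1.84 and 1.63 FPKM, and the 3 epithelial markers to 0.104, 0.0684 and 0.0619 FPKM. Tubb3 and Cd68 accounted for most of the shifts in the neuronal and macrophage sums after Fn1 knockdown, and the part of such shifts in the results was not tested. Fn1, the knockdown target, was at 2802 FPKM in control cells, 2489 in NELL2-overexpressing cells and 137 after its own knockdown, the direction of its label.

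The sequences of the study's qRT-PCR primers for the NELL genes are given first. They belong to a separate assay and define none of the FPKM values here. Per its supplement, the study measured Nell1 and Nell2 by qRT-PCR with primer pairs that match mouse transcript models (GENCODE, GRCm38) and are printed below, in lower case and 5′ to 3′.
Nell2 primer, sense: gaaccacctaccgagagtctga
Nell2 primer, antisense: ctccttacagcacttgccatcc
Nell1 primer on the sense strand: tgccctcctttgaactgctcag
Nell1 primer on the other strand: ccacacttaggtgcttctgcac

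The NELL2 pair matched a Nell2 transcript of 3220 bases at bases 948 to 969 and, on the other strand, 1081 to 1102, a product of 155 bases. The NELL1 pair matched a Nell1 transcript of 6617 bases at bases 1627 to 1648 and 1709 to 1730, a product of 104 bases. Each primer lay inside the coding part, which runs from base 107 to 2566 of the Nell2 transcript and from 526 to 2958 of the Nell1 transcript. Of the 10 primers with which the study cut domains out of its NELL2 construct, 3 matched the same mouse Nell2 transcript as 1 run. Another 6 matched as 2 runs of at least 8 bases, and all 9 lay inside the coding part. The remaining 1 did not match over its full length in either way, though part of it is complementary to a primer that matched. Fragments of the construct and of the endogenous gene can therefore enter the same row, and their shares cannot be told apart in FPKM.

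**Figure D1:**
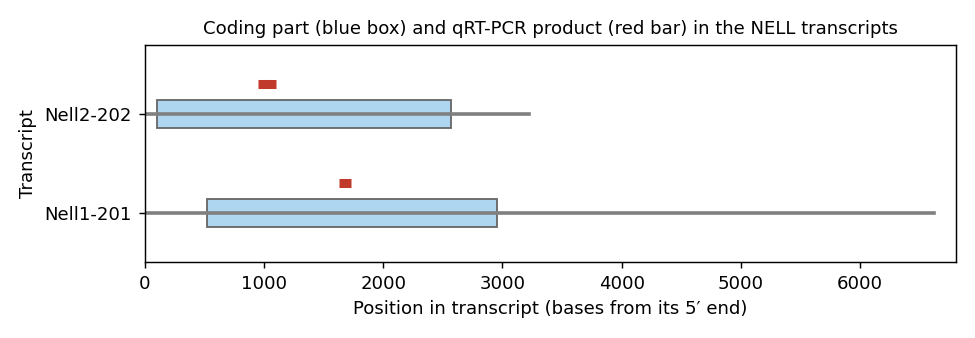
Map of the 2 NELL transcripts, drawn to scale in bases from the 5′ end of each. The grey line is the whole transcript, the blue box its coding part and the red bar the qRT-PCR product, which is 155 bases long in Nell2 and 104 bases in Nell1 and lies inside the coding part of both.

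In the control library the order of the levels was Slit3, Slit2, Robo1, Robo2, Robo3, Nell2, Slit1, Nell1, Robo4 and Ros1. Slits were the most abundant members: Slit3 stood at 18.1 FPKM and Slit2 at 9.88 FPKM. Robo1 followed at 4.51 FPKM, and both receptors known to bind NELL2 were lower, Robo2 at 1.65 FPKM and Robo3 at 1.13 FPKM. Below 1 FPKM were Nell2 (0.640 FPKM), Slit1 (0.355 FPKM), Nell1 (0.141 FPKM) and Robo4 (0.00736 FPKM), and Ros1 was listed at 0. From Slit3 down to Nell2, each gene was separated from the next by more than counting error, taken as the exact 95% interval of its estimated fragments. Nell2 and Slit1, Slit1 and Nell1, Nell1 and Robo4, and Robo4 and Ros1 had overlapping intervals. Such overlap does not by itself show equal levels, and the difference within these pairs was not tested. All intervals here cover counting error only, are approximate because fragments were estimated from FPKM and transcript length, and treat PCR copies of a molecule as independent.

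With NELL2 overexpression Nell2 moved to the top of this order, and the other 9 genes kept their sequence, with intervals overlapping for Robo4 and Ros1. After Fn1 knockdown Nell2 stood just above Robo3, with overlapping intervals, and Nell1 passed Slit1, again with overlapping intervals. The plot of levels by library shows all 10 genes.

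**Figure D2:**
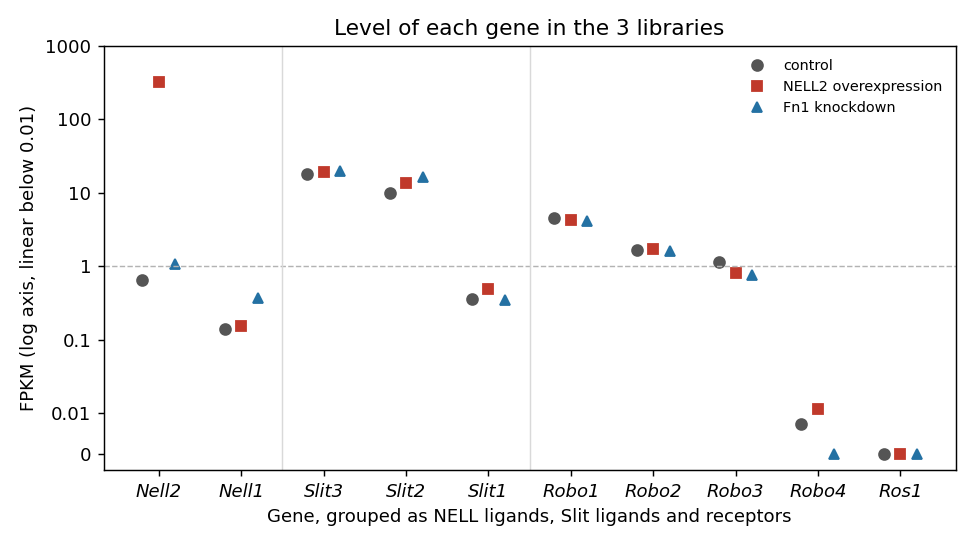
FPKM of each gene (log axis, linear below 0.01) in the control (grey circles), NELL2 overexpression (red squares) and Fn1 knockdown (blue triangles) libraries, 1 point for each library, with a dashed line at 1 FPKM. Nell2 in the overexpression library, at 326 FPKM, stands far above all other points, Slit2 and Slit3 lie between 9.88 and 19.5 FPKM, and Ros1 is at 0 in the 3 libraries.

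A gene was called when FPKM + 1 differed by 2-fold or more from the control (a log2 ratio of 1 or more in size) and reached 1 FPKM in either library. All log2 ratios below are on this FPKM + 1 scale, which understates the change of genes at low levels. Of the 10 members 6 reached 1 FPKM and were tested in each comparison: Nell2, Robo1, Robo2, Robo3, Slit2 and Slit3. With NELL2 overexpression 1 of the 6 was called, against 0.652% of the 12572 features tested. It was Nell2, below 1 FPKM in the control, and its call was fixed in advance by the construct. After Fn1 knockdown 0 of the 6 were called, against 1.23% of 12574. The median log2 ratio of the 6 was 0.06 with overexpression and 0.04 after knockdown, beside 0.0072 and -0.0028 over all features tested. The 2 comparisons share the control library, so a control value that is high or low enters both.

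A looser reading, chosen after the data had been seen, asked whether the 95% counting interval of the ratio to the control left out 1. It did so for 4 of the 6 tested members in each comparison, Nell2, Slit2, Slit3 and Robo3, where 27.1% of all features did so with NELL2 overexpression and 47.4% after Fn1 knockdown. Robo3 and Nell2, in both comparisons, reached 1 FPKM only in the library where they were higher, so their entry among the 6 favoured a difference. With NELL2 overexpression the difference of Nell2 was set by the construct. Since such intervals hold no variation between cultures, this count describes these libraries and is no test of either manipulation.

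The NELL ligands are described first. Nell2 (ENSMUSG00000022454.17, GRCm38 chr15:95075230-95528559, minus strand, 4 annotated transcripts) was at 0.640 FPKM in control cells, 326 in cells given the construct and 1.06 in Fn1 knockdown cells. Only the library given the construct held it at a high level, the direction of its label. It ranked 13164 among the 51826 rows of the control and 183 in the overexpression library. The ratio of 510 had a counting interval from 385 to 701, set by about 46.3 estimated fragments in the control, and no other feature tested moved as far upward. The transcript made up 0.0818% of all FPKM in that library, and its level was 13.1% of that of Fn1, where it was 0.0228% of Fn1 in the control and 0.773% after Fn1 knockdown.

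Without the construct Nell2 was 1.65 times as high after Fn1 knockdown as in the control (interval 1.15 to 2.46). The log2 ratio was 0.33, short of the 2-fold rule, and 9.93% of the features tested lay at least as far on the same side. At 46.3 and 80.6 estimated fragments, the endogenous gene was measured with little depth in both libraries.

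Nell1 (ENSMUSG00000055409.14, GRCm38 chr7:49974864-50866608, plus strand, 5 transcripts) was at 0.141 FPKM in control, 0.152 in NELL2 overexpression and 0.370 in Fn1 knockdown cells. It stayed under 1 FPKM in all of them. The ratio was 1.08 with overexpression (interval 0.393 to 2.99), so a difference was not detectable at this depth. After Fn1 knockdown the ratio was 2.62 (interval 1.19 to 6.42), resting on about 8.94 and 24.7 estimated fragments. With the shorter length of all its transcripts, in place of the coding ones, that interval ran from 0.974 to 6.92 and held 1. Nell2 exceeded Nell1 by 4.53-fold in the control and 2.86-fold after Fn1 knockdown, on the FPKM scale.

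**Figure D3:**
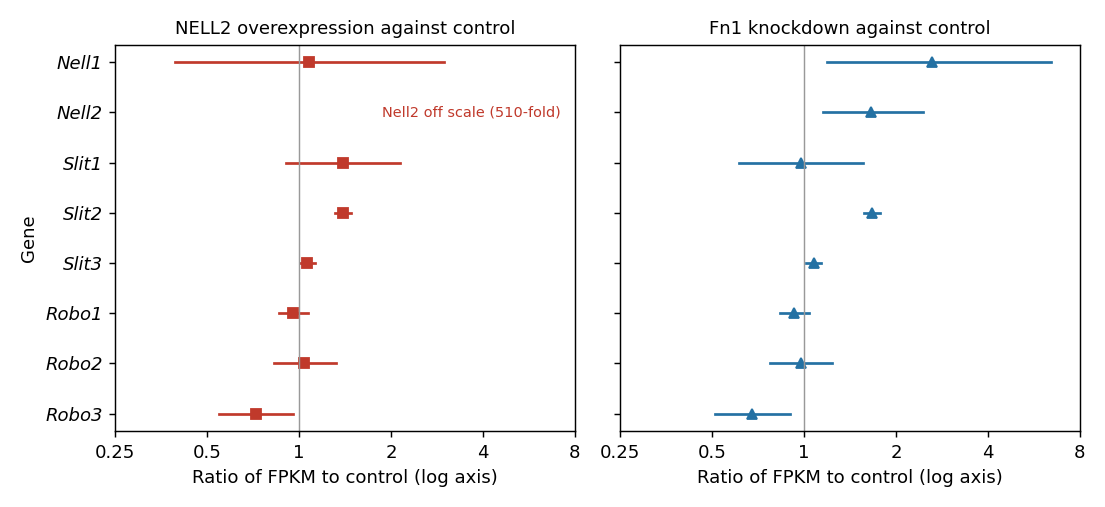
Ratio of FPKM to the control (log axis) for 8 of the genes with NELL2 overexpression (left) and Fn1 knockdown (right), each point 1 library against the control and each line its approximate 95% counting interval, with a vertical line at 1. Slit2 lies right of the line on both sides at 1.39 and 1.67 and Robo3 left of it at 0.721 and 0.675; Nell2 with overexpression is off the scale, and Robo4 and Ros1 have too few fragments to be drawn.

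The Slits, the classical ligands of the Robo family, held the largest difference among the tested members outside Nell2. Nell1, under 1 FPKM and not tested, had a larger linear ratio after Fn1 knockdown (2.62). Slit2 (ENSMUSG00000031558.15, GRCm38 chr5:47983138-48307733, plus strand, 23 transcripts) was at 9.88 FPKM in control cells, 13.7 in NELL2-overexpressing cells and 16.5 in Fn1 knockdown cells. Both manipulated libraries were above the control. The ratio was 1.39 with overexpression (interval 1.31 to 1.48, log2 ratio 0.44) and 1.67 after knockdown (interval 1.57 to 1.77, log2 ratio 0.68). Neither reached 2-fold. Of all features tested, 3.08% lay at least as far upward with NELL2 overexpression and 2.10% after Fn1 knockdown. About 1761, 2527 and 3094 fragments stood behind these values.

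Slit3 (ENSMUSG00000056427.10, GRCm38 chr11:35121224-35708507, plus strand, 4 transcripts) was at 18.1, 19.3 and 19.5 FPKM in the same order. It was the most level of the Slits. The ratios of 1.07 (interval 1.005 to 1.13) and 1.08 (interval 1.01 to 1.14) left out 1 only narrowly, and with the length taken over all transcripts they held it, running from 0.923 to 1.23 and from 0.932 to 1.24. Upward differences at least this large were seen in 28.1% and 32.9% of the features tested. Slit1 (ENSMUSG00000025020.11, GRCm38 chr19:41600257-41743665, minus strand, 5 transcripts), the Slit most closely tied to the nervous system, was at 0.355, 0.494 and 0.346 FPKM and never reached 1 FPKM. Its ratios of 1.39 (interval 0.907 to 2.15) and 0.976 (interval 0.611 to 1.55) did not separate the libraries.

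Added together, the 3 Slits came to 28.4 FPKM in control cells, 33.5 with the NELL2 construct and 36.4 with Fn1 siRNA, which is 118% and 128% of the control. Most of the gain was Slit2. Its share of the sum was 34.8%, 40.9% and 45.4%, while that of Slit3 was 63.9%, 57.6% and 53.7%, and Slit3 exceeded Slit2 by 1.84-fold, 1.41-fold and 1.18-fold in the 3 libraries.

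Slit2 and Slit3 are also the hosts of miR-218, a microRNA known in osteoblast and neuronal biology, and its sequence is shown because it lies inside the Slit gene with the largest difference. Both hairpins, Mir218-1 in Slit2 (GRCm38.p6 chr5:48223942-48224051) and Mir218-2 in Slit3 (chr11:35616816-35616925), lie in introns, overlapping no host exon, and carry the same 21-base mature sequence per RefSeq. Capitals mark the seed, bases 2 to 8.
mmu-miR-218-5p: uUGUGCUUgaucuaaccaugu

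Mir218-1 was listed at 0 in the 3 libraries, and Mir218-2 at 0, 0.140 and 0 FPKM. The libraries were made from polyadenylated RNA, a selection that is not made to capture hairpins or mature microRNAs, so these rows do not measure miR-218.

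Of the receptors, Robo1 carried most of the transcript. Robo1 (ENSMUSG00000022883.11, GRCm38 chr16:72308306-73046095, plus strand, 9 transcripts), a main Slit receptor, was at 4.51 FPKM in control cells, 4.32 with the NELL2 construct and 4.19 with Fn1 siRNA. Both ratios, 0.958 (interval 0.860 to 1.07) and 0.929 (interval 0.834 to 1.04), included 1. Its share of the 4 Robo genes was 61.8%, 63.0% and 63.9%.

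Robo2 (ENSMUSG00000052516.19, GRCm38 chr16:73891839-74411825, minus strand, 13 transcripts), the neighbour of Robo1 on that chromosome and a NELL2 receptor, was at 1.65, 1.71 and 1.61 FPKM in control, overexpression and knockdown. The 3 libraries were close together. The ratios were 1.04 (interval 0.825 to 1.32) and 0.976 (interval 0.771 to 1.24), with about 144, 155 and 148 estimated fragments behind them.

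Robo3 (ENSMUSG00000032128.15, GRCm38 chr9:37415669-37433246, minus strand, 6 transcripts), the divergent Robo through which NELL2 repels commissural axons, was at 1.13 FPKM in control cells, 0.815 with the NELL2 construct and 0.763 with Fn1 siRNA. The control was the only library with more than 1 FPKM. The ratios were 0.721 (interval 0.547 to 0.956) and 0.675 (interval 0.511 to 0.901), with log2 ratios of -0.23 and -0.27, and neither was called. At least as large a difference downward was found in 7.55% of features with overexpression and in 14.9% after knockdown. The values rest on about 123, 92.0 and 87.7 fragments.

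Robo4 (ENSMUSG00000032125.20, GRCm38 chr9:37401897-37415115, plus strand), the endothelial Robo, was listed at 0.00736, 0.0116 and 0 FPKM. That is about 1 fragment or none in each library, since 1 fragment of this gene was worth 0.0120 FPKM in the control, and no ratio is given. The gene ends 553 bases from Robo3, which lies on the other strand, but shares no exon bases with it. Of the endothelial markers, Pecam1 was at 0.0605, 0.121 and 0.0545 FPKM, Cdh5 at 0.738, 0.809 and 0.499 FPKM, Tek at 0.0373, 0.0434 and 0.0835 FPKM and Kdr at 0.914, 0.812 and 1.33 FPKM.

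Ros1 (ENSMUSG00000019893.13, GRCm38 chr10:52045721-52195244, minus strand) was listed at 0 in each library. A count of 0 allows up to about 3 fragments, as a 95% limit on the upper side alone. For this gene that is 0.0182, 0.0176 and 0.0173 FPKM in control, overexpression and knockdown. The exact 95% interval used for the order of levels reaches somewhat higher, to 0.0224, 0.0217 and 0.0212 FPKM. Of the markers of epithelial cells, in which Ros1 is known to act, Epcam was also listed at 0, Cdh1 was at 0.0586, 0.0451 and 0.0619 FPKM and Krt8 at 0.0459, 0.0234 and 0 FPKM. No member shared exon bases with another gene of the GENCODE annotation used here, and the annotation behind the deposited FPKM is not given in the sources used here.

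The 4 Robo genes summed to 7.30 FPKM in control cells, 6.86 with the NELL2 construct and 6.56 with Fn1 siRNA, which is 94.0% and 89.9% of the control. The part held by Robo3 was 15.5%, 11.9% and 11.6%. Set against the receptors, the Slit sum was 3.89, 4.89 and 5.54 times the Robo sum, and Nell2 was 0.0877, 47.6 and 0.161 times the Robo sum. In control cells there was thus more Slit than Robo transcript and less Nell2 than Robo transcript, and with the construct Nell2 exceeded both.

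The windows around the annotated starts were examined for a feature that the choice of genes had not used, their CpG dinucleotides (CG counted on 1 strand, which reads the same on the other). RefSeq (GRCm38.p6) gave windows of 300 bases, 250 before and 50 after the start, for 8 of the 10 genes, all but Nell2 and Slit1. Slit3 and Slit2, the members of highest level in the control, and Ros1, listed at 0, are printed to show the contrast, 5′ to 3′ on the strand of the gene, with each CG in capitals.
Slit3, chr11:35121206-35121505: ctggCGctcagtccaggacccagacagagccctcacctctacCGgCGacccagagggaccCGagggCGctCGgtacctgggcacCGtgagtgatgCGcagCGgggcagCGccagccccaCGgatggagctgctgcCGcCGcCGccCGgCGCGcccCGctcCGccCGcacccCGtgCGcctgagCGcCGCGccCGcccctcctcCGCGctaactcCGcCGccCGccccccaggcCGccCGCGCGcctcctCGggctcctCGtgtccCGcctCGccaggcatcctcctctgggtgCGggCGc
Slit2, chr5:47982905-47983204: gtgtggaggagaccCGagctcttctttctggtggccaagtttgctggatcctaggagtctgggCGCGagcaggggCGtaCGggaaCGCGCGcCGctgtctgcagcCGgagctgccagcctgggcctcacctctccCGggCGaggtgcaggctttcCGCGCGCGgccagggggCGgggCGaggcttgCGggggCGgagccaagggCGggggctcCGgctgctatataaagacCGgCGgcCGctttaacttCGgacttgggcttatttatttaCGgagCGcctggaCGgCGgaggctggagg
Ros1, chr10:52195195-52195494, minus strand: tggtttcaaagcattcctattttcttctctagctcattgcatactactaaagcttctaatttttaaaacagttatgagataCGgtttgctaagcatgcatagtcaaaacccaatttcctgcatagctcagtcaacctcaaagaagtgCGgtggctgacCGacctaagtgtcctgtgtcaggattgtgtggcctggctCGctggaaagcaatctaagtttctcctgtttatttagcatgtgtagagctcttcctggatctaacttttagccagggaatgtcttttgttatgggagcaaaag

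The Slit3 window held 41 CpG at 78.3% G and C, a number that 3.46% of the 32851 windows reached, and the Slit2 window held 30 at 68.0%, reached by 11.7%. The Ros1 window held 4, reached by 68.6%, and that of Robo4, the other receptor near 0, held 2, reached by 85.9%. Nell1 had 28 although it stayed under 1 FPKM, Robo3 had 17, Robo1 had 15, and the 3 windows of Robo2 had 17, 5 and 9. The windows follow RefSeq and the gene spans given above follow GENCODE, and the 2 sources differ. The Robo2 windows with 5 and 9 lie outside the Robo2 span, and the Robo1 window lies well inside the Robo1 span. For comparison the median was 23 over 8913 genes at 1 FPKM or more in the control and 3 over 5637 genes at 0 in all libraries. Slit2 alone among the 8 held TATAAA or its reverse complement TTTATA, found in 13.6% of all windows. Which start these cells use was not measured.

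Genes that act downstream of Robo were then examined, many of them general actin regulators. All 20 genes of a list of Robo effectors, the GTPase regulators, adaptors and actin proteins that Robo tails recruit, were at 1 FPKM or more in the control. The highest were Rhoa at 258, 230 and 242 FPKM, Cdc42 at 258, 254 and 232 FPKM and Rac1 at 123, 117 and 45.6 FPKM, values again in the order control, overexpression and knockdown. With NELL2 overexpression 1 of the 20 was called, against 0.652% of all features: Abl1, a tyrosine kinase that phosphorylates Robo, at 10.7, 25.4 and 14.7 FPKM, a log2 ratio of 1.17. It was no longer called with a pseudocount of 5. After Fn1 knockdown 1 of the 20 was called, against 1.23% of all features: Rac1, the GTPase of lamellipodia, with a log2 ratio of -1.41. Both genes share exon bases with another gene: Abl1 with Gm13427, at 0.108, 0 and 0 FPKM, and Rac1 with Daglb, at 5.03, 5.08 and 3.48 FPKM. The part of the overlap in these values was not tested. The median log2 ratio of the list was -0.04 in both comparisons, with 6 higher and 14 lower under NELL2 overexpression and 10 each way after Fn1 knockdown.

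The srGAP proteins, which bind Robo tails, were not called in either comparison. Srgap2 was at 10.2, 13.1 and 12.5 FPKM, Srgap3 at 4.72, 4.99 and 8.58 FPKM and Srgap1 at 1.58, 1.34 and 2.03 FPKM. The log2 ratio of 0.74 for Srgap3 after Fn1 knockdown was the largest of these.

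Slit binding to Robo uses heparan sulfate, and 16 of 17 genes for its core proteins, its synthesis and related Slit and Robo cofactors were at 1 FPKM or more. The most abundant were Gpc1 (glypican-1, which binds Slit) at 134, 158 and 178 FPKM, Sdc2 (syndecan-2) at 124, 122 and 148 FPKM and Sdc4 (syndecan-4) at 113, 130 and 124 FPKM. Of the 16, 0 were called in either comparison, near the 0.652% and 1.23% of all features, and the list median was 0.02 and 0.08 on the log2 scale.

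Among 5 known or proposed NELL partners, 3 were tested with NELL2 overexpression and 0 called, against 0.652% of all features. After Fn1 knockdown 4 were tested and 1 called, against 1.23%, which was Fn1, the siRNA target. Fn1 shares exon bases with Apol7d, at 3.09, 1.47 and 0.424 FPKM in control, overexpression and knockdown. The part of that overlap in the values was not tested. Itgb1, the integrin chain that NELL1 and fibronectin bind, was at 497, 527 and 624 FPKM, and Atraid, a NELL1 partner in bone cells, at 17.2, 19.8 and 20.6 FPKM. Cntnap4, another NELL2 and NELL1 receptor candidate, was at 0.826, 0.504 and 1.37 FPKM, and Prkcb, a protein kinase C that binds NELL1, at 0.390, 0.439 and 0.767 FPKM. Of 3 effectors of Ros1, the phosphatase Ptpn11 was at 52.7, 54.6 and 55.4 FPKM, Vav3 at 0.793, 1.15 and 0.717 FPKM and Ptpn6 at 0.283, 0.289 and 0.0709 FPKM. With overexpression 2 of these were tested and after knockdown 1, with 0 called, against 0.652% and 1.23% of all features.

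The other guidance families were measured for comparison. Of 22 netrin, semaphorin, ephrin and related ligands, 21 had a row and 17 were tested, with 0 called in either comparison, near the shares of all features (0.652% and 1.23%), and medians of -0.02 and 0.03. With a filter at 5 FPKM in place of 1 FPKM, the median after Fn1 knockdown was 0.39. The highest were Sema3c at 60.1, 73.6 and 80.3 FPKM, Sema3a, a semaphorin known to protect bone, at 24.8, 23.3 and 40.4 FPKM, and Efnb2 at 23.1, 23.6 and 30.5 FPKM. In the control Slit3 (18.1 FPKM) and Slit2 (9.88 FPKM) were below these 3 ligands. Of 25 other guidance receptors 20 were tested and 0 called, again near those shares, with medians of 0.01 and -0.03. Plxnb2 at 101, 102 and 106 FPKM, Nrp2 at 50.3, 49.95 and 54.0 FPKM and Plxna1 at 49.0, 47.2 and 73.6 FPKM all stood above Robo1, and Dcc, the netrin receptor, was listed at 0.

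**Figure D4:**
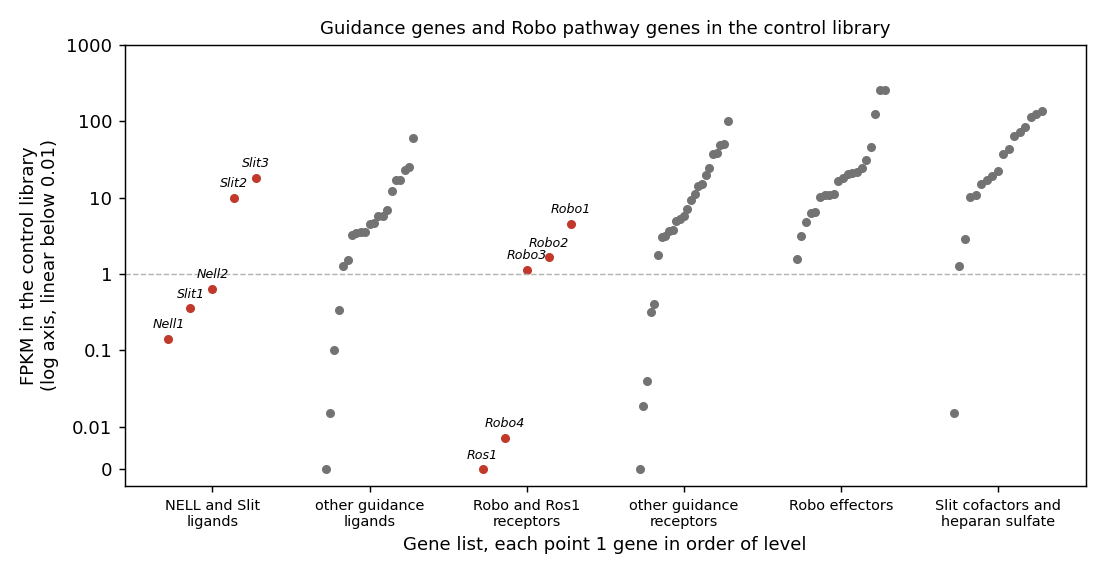
FPKM in the control library (log axis, linear below 0.01) of the NELL and Slit ligands, the Robo and Ros1 receptors (red, named) and the genes of the other lists (grey), each point 1 gene in order of level, with a dashed line at 1 FPKM. Slit3 at 18.1 FPKM lies high among the ligands, Robo1 at 4.51 FPKM lies below many other guidance receptors, and the 20 Robo effectors are all above the line.

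The features whose level was most like that of each tested member over the 3 libraries were found by the largest difference in log2(FPKM + 1) in any library. Slit3 was closest to Tpbg, at 17.9, 19.4 and 19.7 FPKM, with a largest difference of 0.02. Slit2 was closest to Impa1 (10.3, 14.0 and 15.8 FPKM, 0.06), Robo1 to Rpl35a-ps3 (0.02) and Tfcp2 (0.02), Robo2 to Nav3 (0.02) and Robo3 to Gm16973 (0.04) and Dpt (0.04). For Nell2 the closest was Chpf2, and with a largest difference of 3.12 it was not alike. How many features match a given level this closely was not counted.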

How the data were processed

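Messenger RNA of ST2 cells was measured in 3 libraries, 1 in each group, from polyadenylated RNA sequenced as 150 bp paired ends. The values deposited by the authors were FPKM per gene. Per the labels, HISAT2 and DESeq were used and the build was GRCm38; versions, annotation and strand setting are not given in the sources used here. No counts were used here, so no count test was run. The 10 genes, gene lists and markers were chosen with earlier results of these data known. Named genes were the 10 members, Fn1 and, from each list, called genes and the 3 highest in the control; Srgap1 to Srgap3, Cntnap4, Prkcb, Dcc and single marker genes were added after their values were seen. Log2 ratios used a pseudocount of 1 FPKM. Depth was estimated from the commonest low FPKM times length among genes with a single transcript at least 600 bases long, and fragments from the median length of coding transcripts (GENCODE mouse release 21). Ratio intervals are conditional binomial (Clopper-Pearson, scipy 1.17.1) at 95%. Ntn3 had no row. The call rule was tried on simulated libraries with 4-fold changes in genes at a mean of 5 FPKM or more and counting noise alone. That does not check it near 1 FPKM or against variation between cultures. Alternatives were other pseudocounts, filters, folds, scaling and lengths.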

Additional observations from a re-analysis of the deposited data

How the results depend on the processing

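Under 9 other settings of the call rule, Nell2, the gene given as a construct, was the only member called with NELL2 overexpression. No member was called after Fn1 knockdown under 8 of 9. The exception was a 1.5-fold threshold, which called 1 member, Slit2, and 6.24% of all features. With the rule of a counting interval without 1, chosen after the data had been seen, 4 of the 6 tested members were called with overexpression and 4 after knockdown, beside 27.1% and 47.4% of all features, with Robo3 and Nell2 past the 1 FPKM filter only through their higher library. Slit3 was not among them in either comparison with the length of all transcripts. All 54 recomputed log2 ratios kept their sign, and 9 moved beyond their counting interval with another pseudocount. Over the whole table, the 82 and 155 calls became 178 and 358 with a pseudocount of 0.1, 26 and 50 with 5, 325 and 784 at 1.5-fold, 16 and 22 at 4-fold, 47 and 118 with a filter at 5 FPKM, and 1297 and 1594 with a pseudocount of 0.1 and a filter at 0.1 FPKM. With a pseudocount of 5, Abl1 was no longer called, leaving 0 Robo effectors. With a filter at 5 FPKM the median of the other guidance receptors was -0.02 with overexpression and 0.06 after knockdown, of the opposite sign to the main values, and that of the other guidance ligands after knockdown went from 0.03 to 0.39. Estimated fragments depend on the length chosen: in the control 241 to 784 for Robo1, 566 to 2261 for Slit2, 360 for Slit3 with the length of all transcripts, and 21.5 for Nell1 and 325 for Robo2 with the longest. No paired analysis was possible because there was just 1 library a group, and none could be left out. Depth limits Nell1, Slit1, Robo4 and Ros1, each under 1 FPKM, and no value here measures variation between cultures.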
